A study of Mus musculus with 8 samples.

Results

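Muc1 and 4 further mucin genes, Muc20, Muc4, Muc13 and Muc15, were followed in the kidneys of mice with MUC1 kidney disease, given BRD4780 or vehicle. They were taken by gene symbol from the deposited table of expected counts, and make up 5 of its 21759 genes. Muc1, Muc20 and Muc4 passed the filter on low counts and could be tested, Muc13 was detected at a few counts per library, and Muc15 had no count in any library. No cut on the measured values was used to choose these 5 genes, though earlier results of these data were known. No difference between BRD4780 and vehicle was detected for any of the 3 genes tested, and each of them varied between mice of the same group more than most other kidney genes.

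All 8 mice were males of 8 months that carried the same kind of knock-in, described in the labels only as a MUC1 kidney disease model. The BRD4780 group had 4 mice that received the small molecule at 50 mg/kg once a day for 7 days, and the vehicle group had 4 mice that received saline over the same 7 days. No wild-type kidney was analysed here, so every comparison is between knock-in mice. The RNA came from a sagittal kidney section, a piece that holds cortex and medulla in proportions the labels do not state, and polyadenylated RNA was sequenced from stranded libraries. Libraries are named by treatment and a replicate number, which is only a name and links no mouse of one group to a mouse of the other.

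Mucins are heavily O-glycosylated proteins of epithelial surfaces. MUC1, MUC4, MUC13, MUC15 and MUC20 belong to the transmembrane kind, whose long sugar-coated ectodomain stands above the apical membrane. MUC1 is made in the distal nephron and the collecting duct. In the human disease a frameshift in its repeat region gives an altered protein, which accumulates in the early secretory pathway of tubule cells. MUC4 is known as a partner of the receptor ERBB2, and MUC20 as a partner of the hepatocyte growth factor receptor MET. The comparison bears on whether the transcript of the disease gene, or of its relatives in the same epithelium, differed between treated and untreated kidneys.

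Muc1 (ENSMUSG00000042784) lies on the plus strand of chromosome 3, from 89229057 to 89233381 in GRCm38, and has 7 merged exons. Muc4 (ENSMUSG00000079620, plus strand, 32735886 to 32782391) and Muc20 (ENSMUSG00000035638, minus strand, 32777419 to 32797435) face each other on chromosome 16. Their exons overlap by 627 bases on opposite strands. In all 8 libraries the expected counts of Muc4 and Muc20 added up to a whole number within 0.02, although the Muc4 count was not whole in 5 of them. Reads were therefore divided between this pair by estimation, and the low Muc4 values are less certain than the others. Muc13 (plus strand, 33794037 to 33819934) is on chromosome 16 as well, and Muc15 (plus strand, 110721340 to 110739527) is on chromosome 2.

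The 250 bases before the start of Muc1 and of Muc20 are shown because these genes had the highest levels of the 5 and varied together across the mice. They are printed 5′ to 3′ in the direction of the gene, from RefSeq's GRCm38.p6 windows, at chr3:89228806-89229055 on the plus strand and chr16:32797436-32797685 on the minus strand. Capitals mark matches to 4 motifs.
Muc1: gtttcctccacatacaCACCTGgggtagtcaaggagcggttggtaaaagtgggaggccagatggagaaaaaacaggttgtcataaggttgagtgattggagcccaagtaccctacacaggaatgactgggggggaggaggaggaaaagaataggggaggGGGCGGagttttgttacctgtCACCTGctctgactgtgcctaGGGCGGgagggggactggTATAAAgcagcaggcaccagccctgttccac
Muc20: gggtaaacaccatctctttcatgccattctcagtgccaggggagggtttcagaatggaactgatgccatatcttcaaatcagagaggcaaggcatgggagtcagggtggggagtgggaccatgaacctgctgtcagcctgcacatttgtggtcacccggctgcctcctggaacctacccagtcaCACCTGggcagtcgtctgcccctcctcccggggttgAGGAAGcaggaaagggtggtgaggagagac

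The motifs were a TATA box (TATAAA), a GC box (GGGCGG), an E-box (CACCTG) and an ETS-type site (AGGAAG). Both strands were searched, with no overlap between matches. All were chosen after the Muc1 window had been read. The ETS-type site was chosen after the gene of an ETS factor had come out as most like Muc1. The matches are therefore descriptions of these letters. Muc1 held TATAAA 31 bases before its start, GGGCGG at -91 and -49, and CACCTG at -234 and -70. It held no AGGAAG in the window. The shorter GGAA within that motif was not searched for, and the printed Muc1 letters do hold it. Muc20 held CACCTG at -66 and AGGAAG at -30, and neither of the other motifs. Among 32851 mouse promoter windows that run from 250 bases before to 50 after a start, TATAAA was found in 13.6%, GGGCGG in 35.7%, CACCTG in 20.2% and AGGAAG in 35.4%. Windows were found for 4 of the 5 genes.

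The libraries held 5.74 to 28.2 M expected counts in the BRD4780 group and 16.6 to 28.5 M in the vehicle group. Across 13474 genes tested with edgeR's quasi-likelihood test, 310 rose with BRD4780 (2.30%) and 84 fell (0.623%) at a Benjamini-Hochberg adjusted p under 0.05. Without BRD4780 replicate 3 these numbers were 1647 and 1537, and without vehicle replicate 2 they were 26 and 5, so single libraries moved the number of changed genes many-fold. These were 12.1% and 11.3% of the genes tested without BRD4780 replicate 3. At an unadjusted p under 0.05, 13.9% of all genes were higher and 10.7% lower, and DESeq2 called 6.68% higher and 3.84% lower, which are the shares that counts by these rules are read against. Values below are CPM, the expected counts scaled by TMM-adjusted library totals to a common depth.

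Muc1, the disease gene, had 28.9, 47.4, 6.65 and 32.5 CPM in BRD4780 replicates 1 to 4, against 23.4, 27.4, 36.5 and 15.2 CPM in vehicle replicates 1 to 4. The highest and the lowest library were both from the BRD4780 group, and the groups overlapped over the whole range of the vehicle mice. Muc1 averaged 28.8 ± 16.8 CPM with BRD4780 and 25.6 ± 8.84 CPM with vehicle (SD, n = 4 each). The fitted log2 fold change was 0.17 ± 0.46 (SE), with a 95% interval from -0.85 to 1.19 and an adjusted p of 0.855 in edgeR. The interval takes in lower as well as higher Muc1 levels with BRD4780. The difference of mean log2(CPM + 1) was -0.05 (exact two-sided permutation test, p = 0.943; the smallest p that 4 against 4 mice allow is 0.0286), so even the sign of the Muc1 difference changed with the way of averaging. Whether transcripts of the knock-in allele were counted as Muc1 cannot be read from the sources used here.

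Muc20 was the other well-expressed mucin of the 5. It had 35.3, 64.9, 8.98 and 33.1 CPM in BRD4780 replicates 1 to 4, against 44.4, 49.6, 75.2 and 15.2 CPM in vehicle replicates 1 to 4. As for Muc1, BRD4780 replicate 3 was the lowest library and vehicle replicate 4 the next, and the groups overlapped. Muc20 averaged 35.6 ± 22.9 CPM with BRD4780 and 46.1 ± 24.6 CPM with vehicle (SD, n = 4 each). The log2 fold change was -0.36 ± 0.54 (SE), with a 95% interval from -1.55 to 0.83 and an adjusted p of 0.715 in edgeR.

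Muc4 stood near the limit of detection. It had 25.28, 19.11, 4 and 7 expected counts in BRD4780 replicates 1 to 4, against 19.23, 31.16, 18 and 7.09 in vehicle replicates 1 to 4. This came to 0.752 ± 0.461 CPM with BRD4780 and 0.810 ± 0.394 CPM with vehicle (SD, n = 4 each), and the groups overlapped. The log2 fold change was -0.24 ± 0.57 (SE), with a 95% interval from -1.50 to 1.03 and an adjusted p of 0.836 in edgeR. Thus 0 of the 3 mucins tested passed the threshold in edgeR, 0 passed at an unadjusted p under 0.05, and 0 passed in DESeq2.

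**Figure D1:**
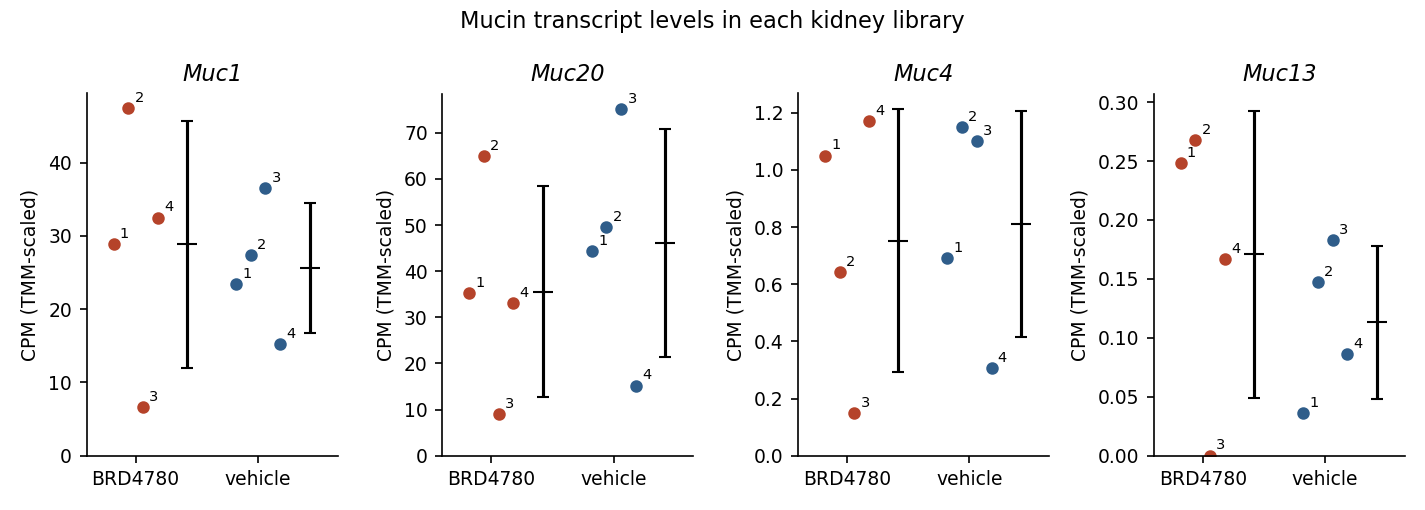
Transcript level of Muc1, Muc20, Muc4 and Muc13 in each library, in CPM on TMM-scaled totals, for the BRD4780 group (left in each panel) and the vehicle group (right). Points are mice with their replicate numbers, bars the mean ± SD of 4 mice. BRD4780 replicate 3 is the lowest library for all 4 genes, at 6.65 CPM for Muc1 and 8.98 CPM for Muc20, and the groups overlap in every panel.

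Muc13, a transmembrane mucin best known from the gut, had 6, 8, 0 and 1 expected counts in BRD4780 replicates 1 to 4, against 1, 4, 3 and 2 in vehicle replicates 1 to 4. These are too few for the filter, and the difference of mean log2(CPM + 1) of 0.07 was not detectable (exact two-sided permutation test, p = 0.457). Muc15 had 0 counts in each of the 8 libraries. Since 3 counts can be missed by chance, the limit on its level was 0.101 to 0.502 CPM depending on the library, and this limit covers counting error only.

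Divided by the length of the merged exons, Muc1 and Muc20 were close in level. Muc1 averaged 12.3 ± 7.17 CPM per kb with BRD4780 and 10.9 ± 3.77 with vehicle, and Muc20 averaged 8.84 ± 5.69 CPM per kb with BRD4780 and 11.4 ± 6.10 with vehicle (SD, n = 4 each). The order of this pair was turned round between the groups, and they differed by less than their spread. Muc4, at 0.0640 ± 0.0392 CPM per kb with BRD4780 and 0.0689 ± 0.0335 with vehicle, came far below them and above Muc13, at 0.0563 ± 0.0402 with BRD4780 and 0.0372 ± 0.0214 with vehicle. The ranges of Muc4 and Muc13 overlapped in both groups.

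The spread between mice was large for these genes. Within the BRD4780 group the SD of log2 CPM was 1.24 for Muc1, 1.20 for Muc20 and 1.10 for Muc4, against a median of 0.21 over all 13474 genes. Within the vehicle group it was 0.53 for Muc1, 0.98 for Muc20 and 0.77 for Muc4, against a median of 0.14. The SD of Muc1 stood at the 98.7th percentile of all genes in the BRD4780 group and at the 92.5th in the vehicle group, and that of Muc20 at the 98.7th in both. Muc4 rests on 4 to 31.16 expected counts per library, whereas Muc1 and Muc20 rest on 177 to 1934.89 expected counts per library. Genes of all levels went into the medians and percentiles. In the BRD4780 group replicate 3 was lowest for each of these mucins, at 6.65 CPM for Muc1 against 28.9 to 47.4 CPM in the other BRD4780 libraries.

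The 3 tested mucins varied together across the mice. Over the 8 libraries the Pearson correlation of log2(CPM + 1) was 0.925 between Muc1 and Muc20 (exact permutation p = 0.00233, adjusted over 3 pairs 0.00699), with a Spearman rho of 0.762 (exact permutation p = 0.0368, adjusted 0.11). It was 0.789 between Muc1 and Muc4 (exact permutation p = 0.0191, adjusted 0.0251) with a rho of 0.524 (exact permutation p = 0.197, adjusted 0.295), and 0.778 between Muc4 and Muc20 (exact permutation p = 0.0251, adjusted 0.0251) with a rho of 0.429 (exact permutation p = 0.299, adjusted 0.299). Without BRD4780 replicate 3 and vehicle replicate 4, the libraries farthest from the median, the correlations were 0.556, -0.207 and -0.293 in the same order of pairs. The 2 relations with Muc4 turned sign and so rested on those libraries. That of Muc1 with Muc20 was 0.836 without BRD4780 replicate 3 alone and 0.926 without vehicle replicate 4 alone (exact permutation p = 0.0266 and 0.0187). After the group means were subtracted, the correlation of Muc1 with Muc20 was 0.946.

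Aquaporin-2, the water channel of the principal cells of the collecting duct, was also lowest in BRD4780 replicate 3 and next lowest in vehicle replicate 4. Its gene Aqp2 had 363.6, 530.9, 158.8 and 523.2 CPM in BRD4780 replicates 1 to 4, against 392.0, 427.1, 590.1 and 271.6 CPM in vehicle replicates 1 to 4. The summed level of 10 principal cell markers ran from 584.1 CPM in BRD4780 replicate 3 to 1138 CPM within the BRD4780 group, and from 828.5 CPM in vehicle replicate 4 to 1307 CPM within the vehicle group. None of the 10 markers was at 0 in all libraries and 0 of the 10 passed the threshold in edgeR (3 were lower at an unadjusted p under 0.05, as were 10.7% of all genes), with a median log2 fold change of -0.23 against 0.01 over all genes. Fewer principal cells in a section and less RNA per cell cannot be told apart in bulk tissue.

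The 12 marker lists were set against the 3 mucins after the values had been seen, which gave 36 relations, and none passed an adjusted p of 0.05. The principal cell list gave the 2 highest Pearson correlations, 0.919 with Muc20 (exact permutation p = 0.00141, adjusted 0.0509) and 0.902 with Muc1 (exact permutation p = 0.00471, adjusted 0.0848). Their Spearman rho was 0.833 and 0.881 (adjusted exact permutation p = 0.111 and 0.0869). By rho this list did not stand out. The urothelium list gave 0.905 with Muc20, and the proximal tubule list gave -0.881 with Muc1 (adjusted exact permutation p = 0.0869 for each). Without BRD4780 replicate 3 and vehicle replicate 4 the Pearson correlations of the principal cell list were 0.706 with Muc20 and 0.476 with Muc1. The injured tubule list gave 0.851 with Muc1 (exact permutation p = 0.0167, adjusted 0.151), and the distal convoluted and connecting tubule list gave -0.816 with Muc20 (exact permutation p = 0.00987, adjusted 0.118). Without the 2 libraries farthest from the median of each list, these were 0.614 (BRD4780 replicate 3 and vehicle replicate 1 left out) and -0.911 (BRD4780 replicates 3 and 4 left out). Markers of the urothelium, which also makes mucins, gave 0.443 with Muc1 and 0.710 with Muc20 (adjusted exact permutation p = 0.568 and 0.273), and 0.671 and 0.824 without BRD4780 replicate 4 and vehicle replicate 3.

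**Figure D2:**
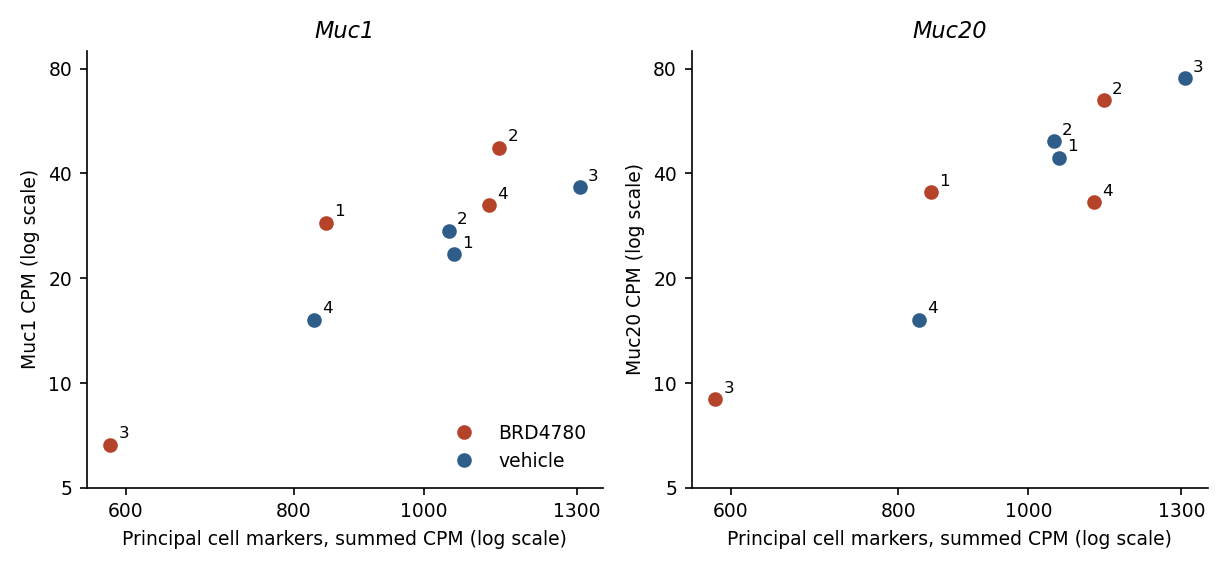
Muc1 (left) and Muc20 (right) in CPM against the summed CPM of 10 principal cell markers, both on log axes, with 1 point per library and its replicate number. BRD4780 replicate 3 (584.1 CPM of markers) and vehicle replicate 4 (828.5 CPM) have the least of the markers and of both mucins.

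A fit with the mean log2 CPM of the principal cell markers as a covariate was added. This list had the highest Pearson correlations of the 12. In it Muc1 gave 0.71 ± 0.19 (SE) on the log2 scale with an adjusted p of 0.026 in edgeR, Muc20 had 0.45 ± 0.21 with an adjusted p of 0.149, and Muc4 had 0.46 ± 0.48 with an adjusted p of 0.526. This was 1 of 15 alternative settings run for Muc1, and the others gave adjusted p-values from 0.17 to 0.989. The same fit called 10.5% of all genes higher and 9.08% lower, so 1 of 3 mucins called is read against a far larger background. Its Muc1 call was lost in 4 of the 8 fits that left out 1 library: the adjusted p in edgeR was 0.059 without BRD4780 replicate 1, 0.132 without BRD4780 replicate 2, 0.0675 without vehicle replicate 1 and 0.0521 without vehicle replicate 3, and under 0.05 without each of the other 4. The markers were measured in the same libraries, and their own response to the compound was not separated from cell content.

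The ratio of Muc1 to Muc20 within a library was 0.818, 0.730, 0.741 and 0.980 in BRD4780 replicates 1 to 4, against 0.526, 0.553, 0.485 and 1.00 in vehicle replicates 1 to 4. This ratio was looked at after its values were seen and was not tested. It was above that of vehicle replicates 1 to 3 in every BRD4780 library and below that of vehicle replicate 4, the vehicle library with the least of both mucins. Relative to the principal cell sum, Muc1 came to 3.42, 4.16, 1.14 and 2.90% in BRD4780 replicates 1 to 4, against 2.22, 2.62, 2.79 and 1.84% in vehicle replicates 1 to 4, and the groups overlapped.

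**Figure D3:**
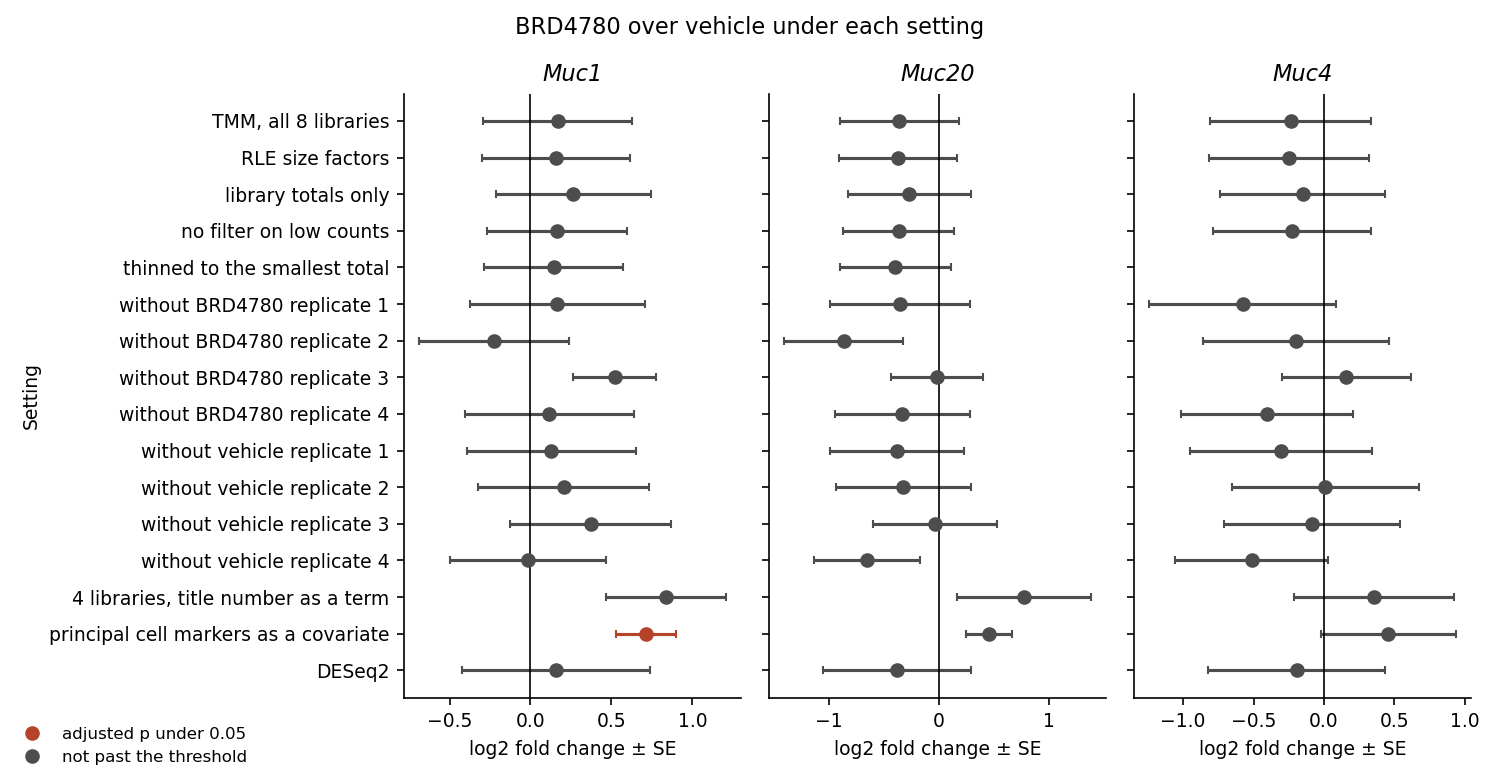
Log2 fold change (BRD4780 over vehicle, points) with its SE (bars) of Muc1, Muc20 and Muc4 under each setting, with TMM on all 8 libraries at the top. The covariate fit of Muc1, at 0.71, is the setting past the threshold; leaving out BRD4780 replicate 2 gave -0.22 and leaving out BRD4780 replicate 3 gave 0.52. Thinning left Muc4 without a value.

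Genes whose level followed Muc1 most closely were ranked by the Pearson correlation of log2 CPM across the 8 libraries, among the 11483 genes whose log2 CPM averaged 1 or more. The 8 highest were Ehf (r = 0.995), Fgfr2 (0.993), Mboat2 (0.984), 9130008F23Rik (0.983), Slc14a2 (0.980), Dennd2d (0.978), Slco4a1 (0.976) and Nrip3 (0.971). Ehf encodes an epithelial transcription factor of the ETS family, Fgfr2 a fibroblast growth factor receptor, and Slc14a2 the urea transporter of the inner medullary collecting duct. Ehf had 69.2, 96.9, 23.1 and 73.3 CPM in BRD4780 replicates 1 to 4, against 54.7, 65.4, 73.6 and 38.3 CPM in vehicle replicates 1 to 4. Slc14a2 had 88.8, 111, 27.4 and 109 CPM in BRD4780 replicates 1 to 4, against 76.5, 81.3, 90.2 and 55.8 CPM in vehicle replicates 1 to 4. Both were lowest in BRD4780 replicate 3 and next lowest in vehicle replicate 4, as Muc1 was.

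A correlation above 0.9 was found for 105 of these genes with Muc1, 139 with Muc20 and 37 with Muc4, and all points share the same 8 libraries. Closest to Muc20 were Lrrc20 (0.992), Dsp (0.991), which encodes the desmosomal protein desmoplakin, Tpm1 (0.989), which encodes a tropomyosin, and Proser2 (0.986). Closest to Muc4 were Fam189a2 (0.969), Sim2 (0.952), Abcc1 (0.952) and Tmem110 (0.948). None of these 16 genes passed the threshold for a difference between BRD4780 and vehicle.

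**Figure D4:**
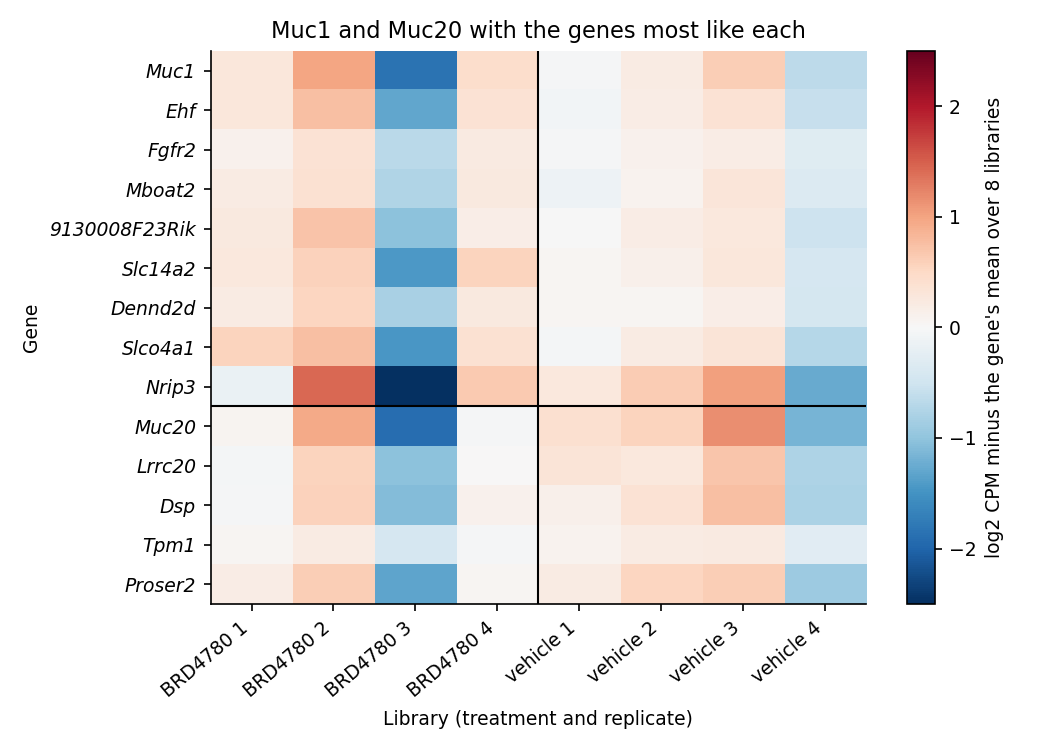
Log2 CPM of Muc1 with the 8 genes most like it (above the line) and of Muc20 with the 4 most like it (below), each as the difference from the gene's mean over 8 libraries, red above and blue below that mean. BRD4780 libraries are on the left; BRD4780 replicate 3 and vehicle replicate 4 are the blue columns.

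Other mucins and mucin-like genes were taken from a list of 20, of which 13 were in the table and 9 could be tested. Of these 1 rose and 0 fell in edgeR, where 2.30% and 0.623% of all genes did. DESeq2 called 1 higher, where 6.68% of all genes were. At an unadjusted p under 0.05, 4 were higher and 0 lower, where 13.9% and 10.7% of all genes passed. The median log2 fold change was 0.96, against 0.01 over all genes. Muc2, Muc6 and Prg4, which lay above it, averaged 0.605, 0.697 and 0.766 CPM with BRD4780 and 0.152, 0.333 and 0.255 CPM with vehicle. The gene that rose in edgeR was Podxl, which encodes podocalyxin, the sialomucin of podocytes and endothelium. It had 135, 160, 118 and 180 CPM in BRD4780 replicates 1 to 4, against 76.2, 58.6, 66.2 and 34.1 CPM in vehicle replicates 1 to 4 (log2 fold change 1.33 ± 0.22 SE, edgeR adjusted p = 0.0175). The groups did not overlap. Of the other 7 podocyte markers listed 3 rose in edgeR, where 2.30% of all genes did. The summed level of these 7, Podxl left out, was 98.7 to 144.0 CPM with BRD4780 and 30.01 to 74.52 CPM with vehicle. Of 8 endothelial markers 3 rose in edgeR, against the same 2.30% of all genes. The sum of the 8 was 290.1 to 369.8 CPM with BRD4780 and 143.6 to 259.0 CPM with vehicle. No marker of either list was at 0 in all libraries. The part of podocyte and endothelial content in the Podxl value was not tested. The call of Podxl depended on which mice were included, as 0 of these mucins rose in 4 of the 8 fits that left out 1 library. These left out BRD4780 replicate 1, 2 or 4 or vehicle replicate 2, and in them 26 to 66 of all genes rose. Without vehicle replicate 1, 3 or 4, 1 of these mucins rose, where 54, 75 and 176 of all genes did. Without BRD4780 replicate 3, 3 of these mucins rose, where 12.1% of all genes did.

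Muc2, the secreted gel-forming mucin of the intestine, had 25, 19, 11 and 2 expected counts in BRD4780 replicates 1 to 4, against 1, 0, 8 and 2 in vehicle replicates 1 to 4. Its log2 fold change of 2.33 ± 0.79 (SE) did not pass the threshold (edgeR adjusted p = 0.116). Cd164, an endolysosomal sialomucin and per length the most abundant of the list, averaged 377 ± 44.8 CPM with BRD4780 and 423 ± 4.33 CPM with vehicle (SD, n = 4 each). The Cd164 groups did not overlap, yet its log2 fold change of -0.17 ± 0.09 (SE) did not pass (edgeR adjusted p = 0.3). Endomucin, the endothelial sialomucin, gave 0.47 ± 0.30 (SE) for its gene Emcn (edgeR adjusted p = 0.347).

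Mucins receive their sugars in the Golgi, where GalNAc transferases attach the first residue. Of 13 such transferase genes tested, 0 rose and 0 fell in edgeR, and the median log2 fold change was 0.003, against 0.01 over all genes. At an unadjusted p under 0.05, 1 was higher and 3 were lower, which is 4 of 13 where 13.9% and 10.7% of all genes passed. DESeq2 called 2 lower, where 3.84% of all genes were. Without BRD4780 replicate 3, 5 were called lower in edgeR, where 11.3% of all genes were. Galnt2 had the smallest p, with 63.7 ± 5.11 CPM with BRD4780 and 76.1 ± 2.34 CPM with vehicle (SD, n = 4 each; log2 fold change -0.26 ± 0.08 SE, edgeR adjusted p = 0.0853). Of 13 tested genes listed for extending or capping the chains, 1 rose and 0 fell in edgeR, where 2.30% and 0.623% of all genes did. Their median was 0.16. At an unadjusted p under 0.05, 4 were higher and 1 lower, where 13.9% and 10.7% of all genes passed. DESeq2 called 2 higher and 1 lower, where 6.68% and 3.84% of all genes were. The gene that rose in edgeR was St6galnac6, a sialyltransferase gene, at 6.31 ± 0.506 CPM with BRD4780 and 3.37 ± 0.75 CPM with vehicle (SD, n = 4 each). Its log2 fold change was 0.90 ± 0.19 (SE, edgeR adjusted p = 0.0366). Whether its enzyme acts on mucins in these kidneys was not measured. The core 1 synthase gene C1galt1 gave -0.23 ± 0.13 (SE) and its chaperone gene C1galt1c1 gave -0.01 ± 0.09 (SE).

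In edgeR, of 4 genes for proteases known to shed mucin ectodomains or other membrane proteins, 0 rose and 1 fell. The shares of all genes were 2.30% and 0.623%. At an unadjusted p under 0.05, 2 were lower, as were 10.7% of all genes. DESeq2 called 1 lower, where 3.84% of all genes were. Bace1, the beta-secretase gene, had 12.6 ± 1.21 CPM with BRD4780 and 18.2 ± 2.17 CPM with vehicle (SD, n = 4 each; log2 fold change -0.53 ± 0.12 SE, edgeR adjusted p = 0.0449). Its exons overlap genes of the opposite strand over 2061 bases, and the sources used here do not say whether strand was used in counting. The metalloprotease genes Adam17 and Adam10 gave -0.16 ± 0.07 and -0.14 ± 0.08 (SE), and neither passed.

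Of the 4 genes for receptor partners of MUC20 and MUC4, 0 rose and 1 fell in edgeR, where 2.30% and 0.623% of all genes did. At an unadjusted p under 0.05, 2 were lower, as were 10.7% of all genes. DESeq2 called 2 lower, where 3.84% of all genes were. Met, the gene of the MUC20 partner, had 165 ± 6.82 CPM with BRD4780 and 206 ± 8.80 CPM with vehicle (SD, n = 4 each), and the groups did not overlap (log2 fold change -0.32 ± 0.07 SE, edgeR adjusted p = 0.0437). Erbb2, the gene of the MUC4 partner, had 77.6 ± 9.47 CPM with BRD4780 and 101 ± 7.12 CPM with vehicle, and its groups did not overlap either. It did not pass (log2 fold change -0.37 ± 0.10 SE, edgeR adjusted p = 0.0662). Among genes named here, the groups of Galnt2, St6galnac6, Bace1, Adam17, Src and Ctnnb1 also did not overlap. The share of all genes without overlap was not counted, so lack of overlap is a description only, for Podxl and Cd164 as well. The calls of St6galnac6, Bace1 and Met were close to the threshold: each of these 3 lists had 0 such calls in 7 of the 8 fits that left out 1 library, with BRD4780 replicate 3 the exception.

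MUC1 signals through a short cytoplasmic tail that binds kinases, adaptors and beta-catenin. Of 20 genes for such partners, 0 rose and 0 fell in edgeR, with a median log2 fold change of -0.10. At an unadjusted p under 0.05, 3 were higher and 4 lower, where 13.9% and 10.7% of all genes passed. DESeq2 called 3 lower, where 3.84% of all genes were. Without BRD4780 replicate 3, 2 were called higher and 4 lower in edgeR, where 12.1% and 11.3% of all genes were. Beta-catenin's gene Ctnnb1 gave -0.30 ± 0.09 (SE, edgeR adjusted p = 0.0937), and the kinase gene Src gave -0.29 ± 0.08 (SE, edgeR adjusted p = 0.076). Lgals3, for the MUC1 ligand galectin-3, gave 0.11 ± 0.13 (SE), and Egfr gave -0.02 ± 0.07 (SE).

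**Figure D5:**
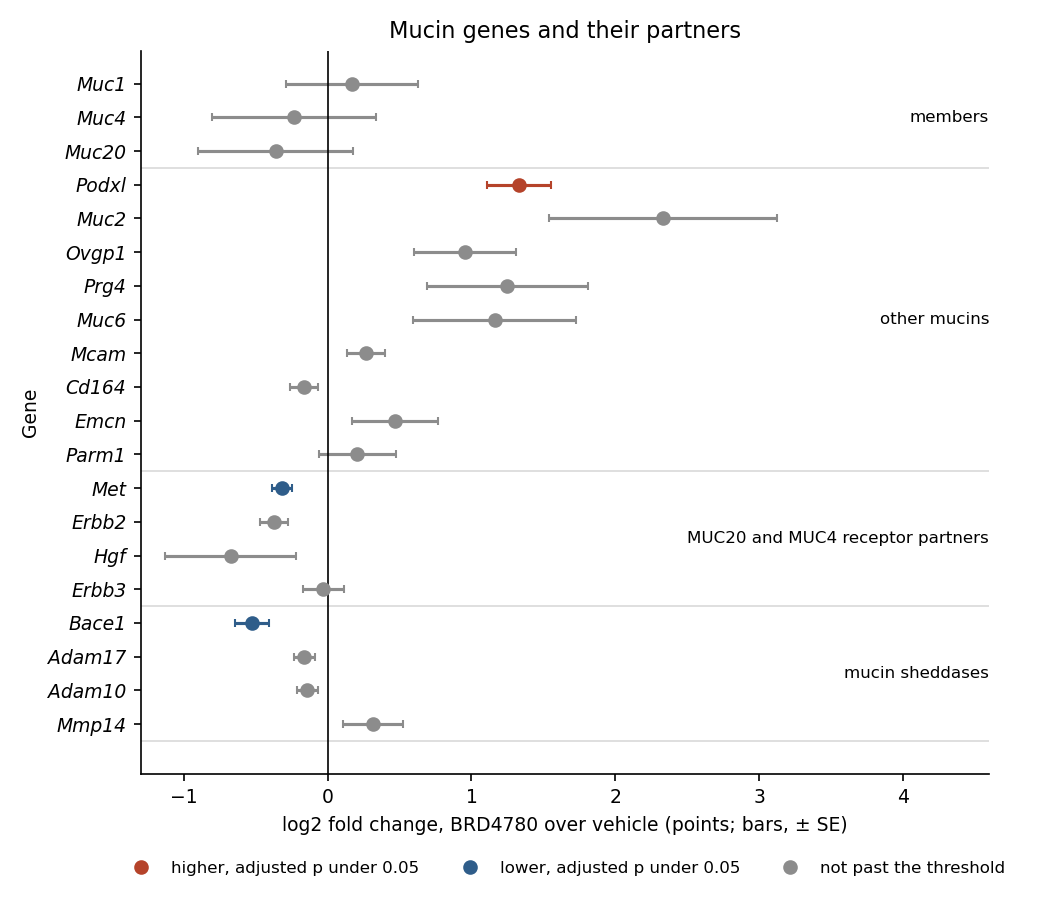
Log2 fold change (BRD4780 over vehicle, points) with its SE (bars) of the 3 tested mucins of the 5, of 9 other mucins, of receptor partners and of sheddases. Podxl, at 1.33, passed the threshold as higher, and Met (-0.32) and Bace1 (-0.53) as lower; Muc1, Muc20 and Muc4 have long bars that cross 0.

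The genes beside the mucins on their chromosomes were also tested. Of 17 tested neighbours of Muc1 on chromosome 3, 0 rose and 0 fell in edgeR, with a median log2 fold change of -0.02. At an unadjusted p under 0.05, 3 were higher and 2 lower, where 13.9% and 10.7% of all genes passed. DESeq2 called 1 higher, where 6.68% of all genes were. Without BRD4780 replicate 3, 3 were called higher in edgeR, where 12.1% of all genes were. Clk2, a kinase gene, gave 0.48 ± 0.15 (SE, edgeR adjusted p = 0.0965). Krtcap2 gave 0.20 ± 0.11 and Trim46 gave 0.18 ± 0.17 (SE). Of 10 tested neighbours of Muc4, Muc20 and Muc13 on chromosome 16, 0 rose and 0 fell in edgeR, with a median of -0.06. At an unadjusted p under 0.05, 1 was lower, as were 10.7% of all genes, and DESeq2 called 0. Among them the transferrin receptor gene Tfrc gave -0.16 ± 0.14 (SE).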

How the data were processed

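The deposited table holds expected counts per gene, which the authors did not normalize. Per the submitters' processing notes STAR 2.5.2b, RSEM 1.3.0 and Picard were used and mm10 and hg19 are named, with no role given for either build. The sources used here state neither the annotation nor whether strand was used in counting. Of 22121 entries, 343 symbols stood on several lines with identical values and were collapsed, which left 21759 genes. Columns of the treated mice are named AGN50 rather than BRD4780, and they were placed by sample title, whose treatment label names BRD4780. A further 1 column of per-sample values, whose name starts with WT and ends with AGN50, matched no sample title and was not used. Between 15.1% and 28.9% of a library's values were not whole. No pair of libraries agreed within sampling noise (lowest chi-square per degree of freedom 7.64).

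Expected counts were rounded, filtered with filterByExpr (minimum count 10) and tested with the quasi-likelihood test of edgeR 4.0.16 in R 4.3.3, with TMM and Benjamini-Hochberg adjustment over 13474 genes and a threshold of 0.05. DESeq2 1.42.0 was an alternative. Standard errors are the log2 fold change over the square root of F, and 95% intervals use the t distribution. The script was tested on simulated data. Coordinates and exon lengths are from GENCODE M21, which held 21592 of the identifiers.

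The genes, lists and tests were chosen with earlier results of these data known. Named were all 5 genes, the 8 genes most like Muc1 and the 4 most like Muc20 and Muc4, list members past the threshold, up to 3 others of a list with the smallest p, other mucins and Muc1 neighbours; C1galt1, C1galt1c1, Adam17, Adam10, Lgals3, Egfr and Tfrc were named after their values were seen. The covariate fit, the relations to marker lists and the leave-one-out correlations were also chosen after seeing the data. So were the Muc1 to Muc20 ratio and the motifs. The covariate was chosen because its list had the highest Pearson correlations with Muc1 and Muc20. The p-values of edgeR and DESeq2 set the group difference against the spread between the 4 mice of a group, estimated with information shared over genes. Those of the exact permutation tests come from rearranging the group labels or, for correlations, the pairing of values over the libraries.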

Additional observations from a re-analysis of the deposited data

Results flagged for a closer look

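Groups of 4 libraries were checked for a library that stood apart from the other 3 (Dixon's test at 95%). Of 52 groups checked, 3 had one, and chance gives about 1 in 20. After the first values were seen the check of the other mucins was limited to those past the filter on low counts, which left out mucins with single reads. Muc13 and Muc15 stayed among the groups checked, although neither passed that filter. Muc15 had no count in any library, so its groups could not show a library that stood apart. Ovgp1, the oviductal mucin-like glycoprotein gene, had 1.35 CPM in BRD4780 replicate 3, against 3.68 to 4.14 CPM in the other 3 BRD4780 libraries. The markers of the distal convoluted and connecting tubule summed to 1986 CPM in vehicle replicate 4, against 1488 to 1544 CPM in the other 3 vehicle libraries. The injured tubule markers summed to 1261 CPM in vehicle replicate 1, against 1411 to 1416 CPM in the other 3 vehicle libraries.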

How the results depend on the processing

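The replicate numbers are names only and were not used as a block. The titles share 2 numbers between groups, and the labels do not say what they mean. With only those 4 libraries and that number as a term, Muc1 gave 0.84, Muc4 turned to 0.36 and Muc20 turned to 0.77, none past the threshold, and 19 genes rose and 22 fell. With the principal cell markers as a covariate Muc1 passed at 0.71, Muc4 turned to 0.46 and Muc20 to 0.45, and 1414 genes rose and 1224 fell. DESeq2 called 864 genes higher and 497 lower. Leaving out each library gave Muc1 from -0.22 to 0.52 (-0.22 without BRD4780 replicate 2 and -0.02 without vehicle replicate 4), Muc4 from -0.58 to 0.16 (0.16 without BRD4780 replicate 3 and 0.01 without vehicle replicate 2) and Muc20 from -0.87 to -0.02. The fold changes did not pass in any of these fits. Genes higher ranged from 26 to 1647 and genes lower from 5 to 1537, both highest without BRD4780 replicate 3. Under the covariate Muc1 ranged from 0.57 to 0.93 and passed in 4 of 8 fits, and Muc20 from 0.29 to 0.74 and passed in 1, without BRD4780 replicate 4. The correlation of Muc1 with Muc20 ranged from 0.836 to 0.948. That of Muc1 with Muc4 ranged from 0.539 to 0.943, past the threshold except without BRD4780 replicate 3 or vehicle replicate 4, and that of Muc4 with Muc20 from 0.556 to 0.878, past it except without BRD4780 replicate 3, vehicle replicate 3 or vehicle replicate 4.

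The difference of mean log2(CPM + 1) of Muc1 turned to 0.0221 on CPM by library totals and ranged from -0.37 to 0.517 when 1 library was left out, above 0 without BRD4780 replicate 3, vehicle replicate 2 or vehicle replicate 3. That of Muc4 ranged from -0.209 to 0.127, above 0 without the same 3 libraries, and that of Muc20 from -0.896 to 0.0806, above 0 without BRD4780 replicate 3. The cause of these changes was not tested. Size factors, library totals, no filter and thinning to the smallest total kept the direction of the fitted fold changes that could be had. Depth limits what can be said of Muc4, Muc13 and Muc15, and thinning left Muc4 without a value.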
